A study of Mus musculus with 8 samples.

Results

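The sarcoplasmic reticulum of heart muscle stores the calcium that drives each beat and releases it at the dyad, where it meets the plasma membrane. The 10 genes described here encode proteins of that store and that junction: Casq1, Casq2, Pln, Sln, Jph1, Jph2, Trdn, Asph, Hrc and Srl. They were taken by gene symbol from the 37982 genes of the authors' deposited table, and each symbol matched 1 gene. They were measured in ventricles of C57BL/6 mice at postnatal day 7, with the atria removed. The labels give 2 wild type samples, 3 double mutant samples (code mkmy) and 3 triple mutant samples (code mkmyn). As known from the study, both mutant groups carried altered Mkl2 and Myh7, and the triple mutants carried altered Nkx2-5 as well. The labels do not give the exact alleles, their dosage or the sex of the pups.

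In heart muscle a calcium pump fills the store, and the small membrane proteins phospholamban (Pln) and sarcolipin (Sln) hold that pump back. Calsequestrins (Casq1, Casq2) and the histidine-rich calcium binding protein (Hrc) bind calcium inside the store, as does sarcalumenin (Srl). Triadin (Trdn) and junctin, a product of Asph, tie calsequestrin to the ryanodine receptor. Junctophilins (Jph1, Jph2) bridge the store to the plasma membrane and so shape the dyad. Casq2 and Jph2 are the main cardiac members of their families, whereas Casq1 and Jph1 are best known from skeletal muscle.

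The table gives 1 FPKM per gene and group, which is fragments scaled to transcript length and library size, so levels can be compared between genes. It holds no value per sample, and so the spread between pups cannot be shown and the read depth is unknown. A difference is called where the authors' Cuffdiff test has a q value under 0.05. Log2 fold changes are ratios of FPKM with no pseudocount, and their standard errors (SE) were derived by dividing the deposited log2 fold change by the deposited test statistic. Of the 10 genes 6 were tested in every comparison. Pln, Trdn and Srl are missing: the table marks their loci as holding more fragments than could be estimated (HIDATA). In addition, Sln was not tested. In these whole-ventricle samples, fewer cells of a type and less RNA per cell cannot be told apart.

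Hrc was the single gene of the 6 that passed the test in any comparison: it was higher in the double mutant than in wild type. Casq1 stood next, 1.74-fold higher in the double mutant, but missed the threshold. Casq2, Jph2, Jph1 and Asph passed in no comparison. No gene of the 6 passed in the triple mutant, whichever group it was set against.

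Among the calcium binding proteins of the store, Hrc (ENSMUSG00000038239, mm9 chromosome 7, 52590660 to 52594343, listed alone in its locus) encodes a luminal protein that binds calcium and interacts with triadin and the calcium pump. Its FPKM in the authors' deposited table was 138 (wild type), 237 (double mutant) and 163 (triple mutant). Highest was the double mutant, and the triple mutant lay between the others, nearer to wild type. In the authors' deposited table Hrc rose 1.71-fold in the double mutant against wild type (log2 fold change 0.78, SE 0.28, q = 0.0066). That q is the lowest the table holds, a floor that goes with the lowest Cuffdiff p-value of 5e-05. In the same comparison the genes Ddx3y, Ckmt2, Ppp1ca and S100a1 share it, so it does not set Hrc apart. The 95% interval of the log2 fold change of Hrc, 0.22 to 1.33, lay above 0. In that comparison 2.65% of 13034 tested genes were called, and 1.89% were called higher. One call among 6 genes is too few to set against that share. When significance was instead read from the deposited statistic as a standard normal deviate, a setting chosen after seeing the data, the call of Hrc was lost (0.0063 before adjustment).

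Between the triple and the double mutant the log2 fold change of Hrc was -0.54 (SE 0.27, q = 0.062) in the authors' deposited table. This difference passed the authors' own mark of significance, which falls at a q value of 0.1 (0.962% of all tested genes were called lower at that mark), but not the threshold of 0.05. Against wild type the triple mutant stood 1.18-fold higher in the authors' deposited table (log2 fold change 0.24, 95% interval -0.29 to 0.76, q = 0.579). The comparisons with wild type share the wild type samples, so these values are not separate evidence.

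Sex-linked genes differed between the groups as well. In the authors' deposited table the Y-linked gene Ddx3y had FPKM values of 4.82 (wild type), 14.0 (double mutant) and 10.02 (triple mutant). That is the order of groups seen for Hrc, and Ddx3y was called higher in both mutants than in wild type (q = 0.0066 each in the authors' deposited table). The other Y-linked genes listed, Uty, Kdm5d and Eif2s3y, had the same order, and of these Uty was called higher in the double mutant than in wild type (q = 0.0066 in the authors' deposited table). Xist, the RNA of the inactive X chromosome in females, had an FPKM of 88.2 in triple mutants against 1.21 in double mutants (72.7-fold, q = 0.0066) in the authors' deposited table, and its wild type value is a failed estimate (HIDATA). The sex make-up of the groups thus differed, with little Xist in the double mutant, the group in which Hrc was called. Sex and genotype cannot be told apart here, and the part of sex in the values of Hrc and the other store genes was not tested.

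Casq1 (ENSMUSG00000007122, mm9 chromosome 1, 174140025 to 174150026) encodes the calsequestrin of fast skeletal muscle. Its FPKM in the authors' deposited table was 25.3 (wild type), 44.1 (double mutant) and 36.4 (triple mutant). Both mutant groups were above wild type, with the double mutant highest. Against wild type its log2 fold change was 0.80 in the double mutant (SE 0.40, q = 0.0575) and 0.52 in the triple mutant (SE 0.40, q = 0.317) in the authors' deposited table. The first difference passed when q values were recomputed within that comparison alone (q = 0.0394), and it passed the authors' mark of 0.1, at which 2.98% of all tested genes were called higher. Between the mutants the log2 fold change was -0.28, with a 95% interval of -0.96 to 0.41 and q = 0.663 in the authors' deposited table. Its locus is listed together with Gm17224, whose FPKM in the authors' deposited table was 1.68 (wild type), 0.246 (double mutant) and 1.76 (triple mutant), so reads could have been split between them.

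Casq2 (ENSMUSG00000027861, mm9 chromosome 3, 101890338 to 101950437) encodes the cardiac calsequestrin and had the highest level of the measured genes in wild type. Its FPKM in the authors' deposited table was 229 (wild type), 216 (double mutant) and 223 (triple mutant). All 3 groups lay close together. The log2 fold change was -0.09 for the double mutant against wild type (95% interval -0.66 to 0.48, q = 0.928) and -0.04 for the triple mutant (95% interval -0.62 to 0.54, q = 0.972) in the authors' deposited table. Between the mutants it was 0.05, with an interval of -0.47 to 0.56 (q = 0.966) in the authors' deposited table. These intervals leave room for changes of up to about the size seen for Hrc between the mutants.

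Casq2 exceeded Casq1 in every group, but by different margins: 9.06-fold (wild type), 4.90-fold (double mutant) and 6.13-fold (triple mutant). Casq1 thus made up 9.94%, 17.0% and 14.0% of the summed calsequestrin FPKM, while the sum itself ranged from 255 to 260. This share followed the Casq1 value, since Casq2 was nearly level, and it could not be tested from group values. The protein-coding transcripts of the 2 genes in GENCODE M21 have 1 word of 25 bases in common and no word of 50 bases. How fragments were assigned between the 2 genes was not tested, and the annotation behind the FPKM values is not given. Hrc had a higher FPKM than Casq2 in the double mutant and a lower one in the other groups.

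**Figure D1:**
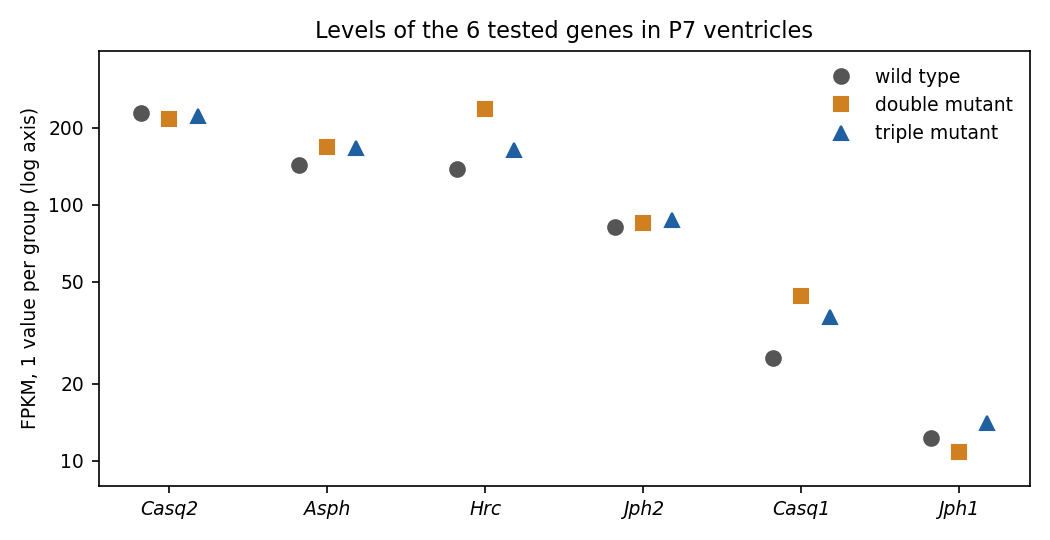
FPKM from the authors' deposited table for the 6 tested genes, 1 point per group, on a log axis and without error bars because the table holds no value per sample. Hrc at 237 and Casq1 at 44.1 stand out in the double mutant, while Casq2 and Jph2 lie close together in all 3 groups.

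The sequence just upstream of a gene's start holds part of its promoter, and Hrc, Casq1 and Casq2 are shown because the first 2 had the largest log2 fold changes and the third is the paralogue whose groups lay close together. Each line gives the 250 bases before the start in RefSeq, build GRCm38.p6, read along the gene's strand. Capitals mark the letters GATAA, a core of GATA factor sites, or the MEF2 motif, on either strand.
Hrc (chr7:45335019-45335268, plus strand): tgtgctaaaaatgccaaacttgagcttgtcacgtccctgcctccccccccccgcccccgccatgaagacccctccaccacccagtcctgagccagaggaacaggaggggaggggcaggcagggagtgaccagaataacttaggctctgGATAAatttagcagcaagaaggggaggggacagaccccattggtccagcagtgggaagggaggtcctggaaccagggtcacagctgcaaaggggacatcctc
Casq1 (chr1:172219896-172220145, minus strand): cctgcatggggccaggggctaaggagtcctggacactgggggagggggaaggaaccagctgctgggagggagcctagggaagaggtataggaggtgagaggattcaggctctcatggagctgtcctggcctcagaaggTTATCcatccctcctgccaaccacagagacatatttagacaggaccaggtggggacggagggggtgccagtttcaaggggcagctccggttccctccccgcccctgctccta
Casq2 (chr3:102086165-102086414, plus strand): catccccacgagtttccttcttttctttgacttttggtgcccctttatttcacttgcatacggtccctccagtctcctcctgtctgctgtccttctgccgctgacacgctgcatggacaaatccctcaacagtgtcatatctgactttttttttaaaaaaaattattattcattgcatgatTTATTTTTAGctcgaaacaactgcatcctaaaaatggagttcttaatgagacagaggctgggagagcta

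RefSeq windows were at hand for 5 of the 10 genes (6 windows): Casq1, Casq2, Hrc, Jph2 and Pln. Both Hrc and Casq1 hold GATAA once, 102 to 98 bases before the start in Hrc and, on the opposite strand, 112 to 108 bases before it in Casq1. GATAA occurs in 22.6% of the 32851 windows of this length, and Pln holds it 2 times. Casq2 holds the MEF2 motif 69 to 60 bases before its start, a motif present in 2.92% of all windows. The E-box letters CANNTG occur in every one of the 6 windows and in 66.2% of all windows. The letters TNAAGTG, which NKX2-5 is known to bind, and the CArG box bound by serum response factor were found in none of the 6 windows; they occur in 10.1% and 1.47% of all windows. Both strands were searched for each motif, and a match or its absence describes only the letters of these windows. No match of one motif overlapped a match of another in the 6 windows. Casq2 and Pln are less rich in G and C (41.6% and 32.8%) than Hrc and Casq1 (59.6% and 61.6%). The windows of Jph2, whose groups lay close together, have 62.0% and 62.8%, and the median over all windows is 52.4%.

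Of the junctophilins, which hold the plasma membrane and the store at a fixed distance, Jph2 (ENSMUSG00000017817, mm9 chromosome 2, 163161978 to 163223729) is the cardiac form. Its FPKM in the authors' deposited table was 82.0 (wild type), 85.0 (double mutant) and 87.1 (triple mutant). Its groups lay close together, with log2 fold changes of 0.05 (95% interval -0.41 to 0.52, q = 0.956) and 0.09 (95% interval -0.37 to 0.55, q = 0.909) against wild type in the authors' deposited table. Between the mutants the value was 0.04, with q = 0.971 in the authors' deposited table.

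Jph1 (ENSMUSG00000042686, mm9 chromosome 1, 16987545 to 17087879), the form of skeletal muscle, had the lowest level of the 6 tested genes. Its FPKM in the authors' deposited table was 12.3 (wild type), 10.9 (double mutant) and 14.0 (triple mutant). Its lowest value was in the double mutant and its highest in the triple mutant. The triple mutant exceeded the double mutant by a log2 fold change of 0.37 (SE 0.28, q = 0.287) in the authors' deposited table, where the unadjusted p was 0.0232. Against wild type the log2 fold changes were -0.18 in the double mutant (q = 0.761) and 0.19 in the triple mutant (q = 0.731) in the authors' deposited table. Jph2 exceeded Jph1 6.66-fold (wild type), 7.82-fold (double mutant) and 6.21-fold (triple mutant). Both genes share 11 transcript words of 25 bases and none of 50.

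Asph (ENSMUSG00000028207, mm9 chromosome 4, 9194470 to 9596497) encodes junctin, junctate and an aspartate hydroxylase from 1 locus, and a value per gene does not separate these products. Its FPKM in the authors' deposited table was 143 (wild type), 168 (double mutant) and 166 (triple mutant). Both mutant groups were above wild type by a similar amount. The log2 fold changes against wild type were 0.23 (SE 0.49, q = 0.855) and 0.22 (SE 0.46, q = 0.852) in the authors' deposited table, the widest errors among the 6 genes. Between the mutants the value was -0.01 (q = 0.993) in the authors' deposited table. The locus is listed with 5 other genes, of which Gm11816 had FPKM values of 9.42, 4.34 and 3.99 in the authors' deposited table, so the division of reads within it is uncertain.

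**Figure D2:**
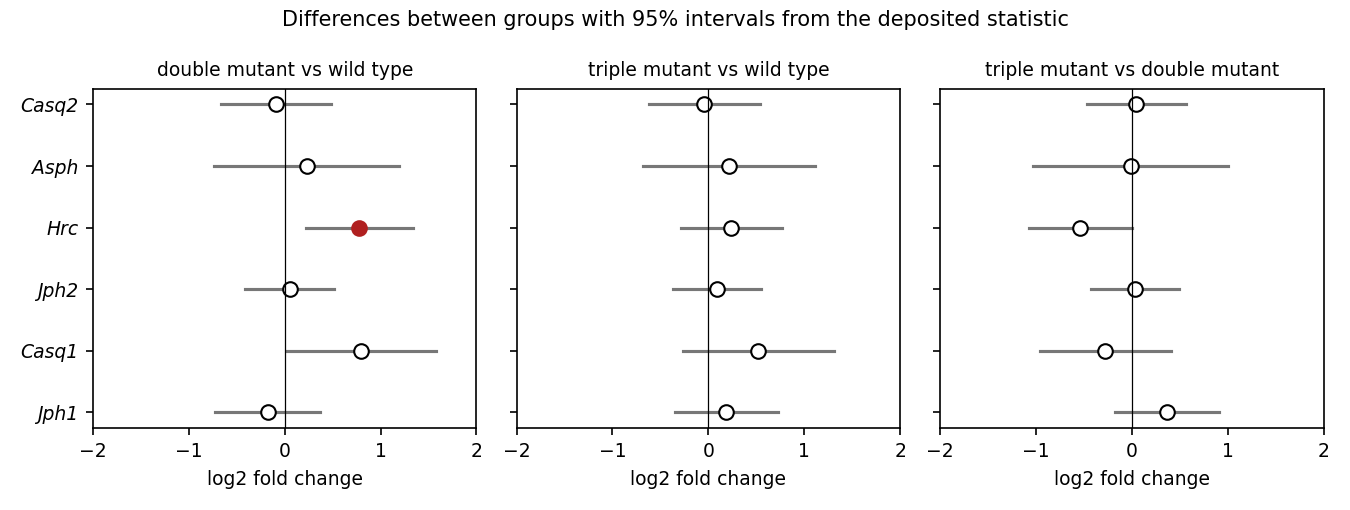
Log2 fold changes of the 6 tested genes in the 3 comparisons, with bars for the 95% intervals derived from the deposited statistic and a filled point where q is under 0.05. The filled point is Hrc in the double mutant against wild type, with an interval of 0.22 to 1.33, and the interval of Casq1 there starts at 0.02.

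The inhibitors of the calcium pump could not be followed. Pln (ENSMUSG00000038583, mm9 chromosome 10, 53016060 to 53068936) was marked HIDATA in all 3 comparisons and is listed at 0, as are Gm9766 and Gm10942 of the same locus. That 0 is a failed estimate and not a level. Sln (ENSMUSG00000042045, mm9 chromosome 9, 53698058 to 53701651), the pump inhibitor best known from atrium and skeletal muscle, had FPKM values of 0.190 (wild type) and 0.149 (triple mutant) in the authors' deposited table and was listed at 0 in the double mutant. It was not tested, and 12.3% of the genes above 0 had a lower value in wild type. Of 10 measured atrial muscle markers (11 listed) 3 stood under an FPKM of 1 in every group, Myl7, Bmp10 and Clic6. The 10 summed to 1007 (wild type), 606 (double mutant) and 921 (triple mutant), most of it Nppa, which the young ventricle also expresses. Of the others, Nr2f2 had 47.5 to 58.7, Dkk3 11.3 to 12.9, Tbx5 6.96 to 10.6, Myl4 7.30 to 9.88, Adamts8 5.21 to 6.99 and Stard10 4.98 to 6.88 in the authors' deposited table. Nppa was called lower in the double mutant than in either other group, and Tbx5 was called higher in both mutants than in wild type.

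Trdn (ENSMUSG00000019787, mm9 chromosome 10, 32803289 to 33196515) and Srl (ENSMUSG00000022519, mm9 chromosome 16, 4480216 to 4541816) are likewise missing in all 3 comparisons. Triadin anchors calsequestrin at the release channel, and sarcalumenin binds calcium along the store. Srl shares its locus with Gm15885, while Trdn is listed alone in a locus of 393 kb. This status was given to 709 genes in at least 1 comparison of the authors' deposited table, and it covers every gene of each of the 188 loci it touches. Taken over the 709 genes, the median length of the locus was 463 kb, against 31.1 kb over the genes tested in every comparison. A locus shared by many genes counts once for each of them in these medians. Of the 709 genes 90.1% shared a locus with another gene, against 44.7% of the tested genes. These shares too count a shared locus once for each of its genes. Counted by locus, 118 of the 188 were shared, and no such count was made for the tested genes. A measured level therefore exists for the calsequestrins, junctophilins, Asph and Hrc but not for triadin, phospholamban or sarcalumenin.

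**Figure D3:**
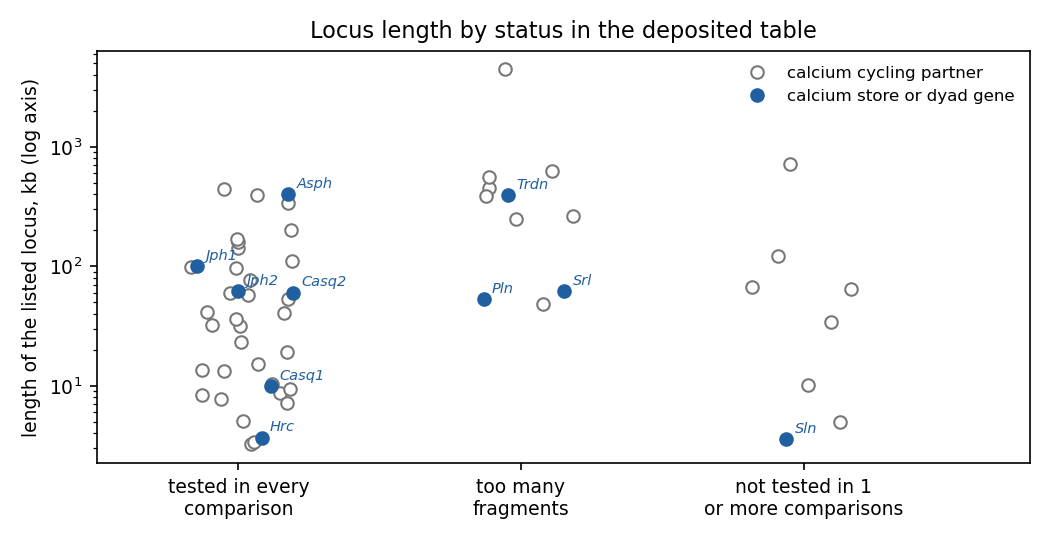
Length of the listed locus in kb, on a log axis, for the 10 genes (filled, named) and 48 further genes of calcium cycling (open), by their status in the authors' deposited table. Hrc and Sln have loci of 3.68 and 3.59 kb, and Trdn has one of 393 kb.

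Ranked within wild type, Casq2 was 134th of 19580 genes above 0, Asph 280th, Hrc 292nd, Jph2 612th, Casq1 2911th and Jph1 5635th. The ranks may be too near the top, since 579 genes marked HIDATA are listed at 0 in every group and were left out. The order of the 6 tested genes was the same in the triple mutant. In the double mutant Hrc was first of the 6, at rank 137, ahead of Casq2 at rank 165. Whether neighbours in this order differ beyond their spread could not be tested, and Asph and Hrc, at 143 and 138 in the wild type column of the authors' deposited table, were nearly level.

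Across the 6 tested genes the median log2 fold change was 0.14 for the double mutant against wild type, where the median of all tested genes was -0.003. The triple mutant had a median of 0.20 relative to wild type (all genes -0.003) and of 0.01 relative to the double mutant (all genes -0.001). Values above 0 numbered 4, 5 and 3 of 6 in these comparisons, against 49.5%, 49.6% and 49.8% of all tested genes. Cuffdiff called none of the 6 in the triple mutant, where the share of all tested genes called was 1.52% relative to wild type and 1.25% relative to the double mutant. At an unadjusted p under 0.05 it listed Casq1 in the triple mutant against wild type, where 12.1% of all tested genes passed, and Hrc and Jph1 against the double mutant, where 8.45% did. In the double mutant against wild type Hrc and Casq1 passed at that level, as did 16.3% of all tested genes. Counts of 1 or 2 among 6 genes are too few to set against these shares. These 6 are the genes that the table could measure, not a sample of the 10.

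The proteins that work with the store were described by a list of 50 genes of calcium cycling, of which 48 are in the table. Against wild type 3 of the 34 tested were called higher in the double mutant and none was called lower. That is 8.82%, beside 1.89% of all tested genes called higher and 2.65% called in either direction. The list was chosen with earlier results known, and 3 calls are too few to set against these shares. Ppp1ca, a catalytic subunit of the phosphatase that dephosphorylates phospholamban, had FPKM values of 119 and 214 (q = 0.0066 in the authors' deposited table), a rise of 1.8-fold, in a locus listed with Rad9. S100a1, a calcium sensor that binds the ryanodine receptor and the pump, stood at 206 and 366 (q = 0.0066 in the authors' deposited table), a rise of 1.78-fold. Cav3, the muscle caveolin of the plasma membrane and its tubules, stood at 167 and 240 (q = 0.0184 in the authors' deposited table), a rise of 1.44-fold. Like Hrc and Casq1, these 3 had their highest value in the double mutant and their lowest in wild type. They were named because they were called higher in the double mutant than in wild type. Only the place of the triple mutant was therefore free, and the share of all genes with this order was not counted.

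Against wild type 1 of 34 partners (2.94%, beside 1.52% of all tested genes) was called higher in the triple mutant and none lower: Calr, a calcium binding chaperone of the endoplasmic reticulum, with FPKM values of 150 and 215 (1.43-fold, q = 0.0458) in the authors' deposited table. Calr was lost when q values were recomputed within the comparison (q = 0.0541), and 1 call is too few to set against that share. The triple mutant values in the authors' deposited table were 163 for Ppp1ca, 268 for S100a1 and 229 for Cav3, with q values of 0.0575, 0.13 and 0.0511 relative to wild type. Between the mutants Cuffdiff called none of 33 partners, and 2 had an unadjusted p under 0.05, a smaller share than the 8.45% of all tested genes: Ppp1ca (q = 0.155) and S100a1 (q = 0.0663) in the authors' deposited table. The medians over the tested partners were 0.12, 0.12 and -0.004 on the log2 scale in the 3 comparisons.

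The central machinery of calcium cycling has no measured level in the table. Atp2a2, the cardiac calcium pump, Ryr2, the release channel, Cacna1c, the L-type calcium channel, and Slc8a1, the sodium-calcium exchanger, are marked HIDATA and listed at 0. The same holds for Camk2d, Cacnb2, Akap6 and Jph3, which makes 8 of 48 partners.

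**Figure D4:**
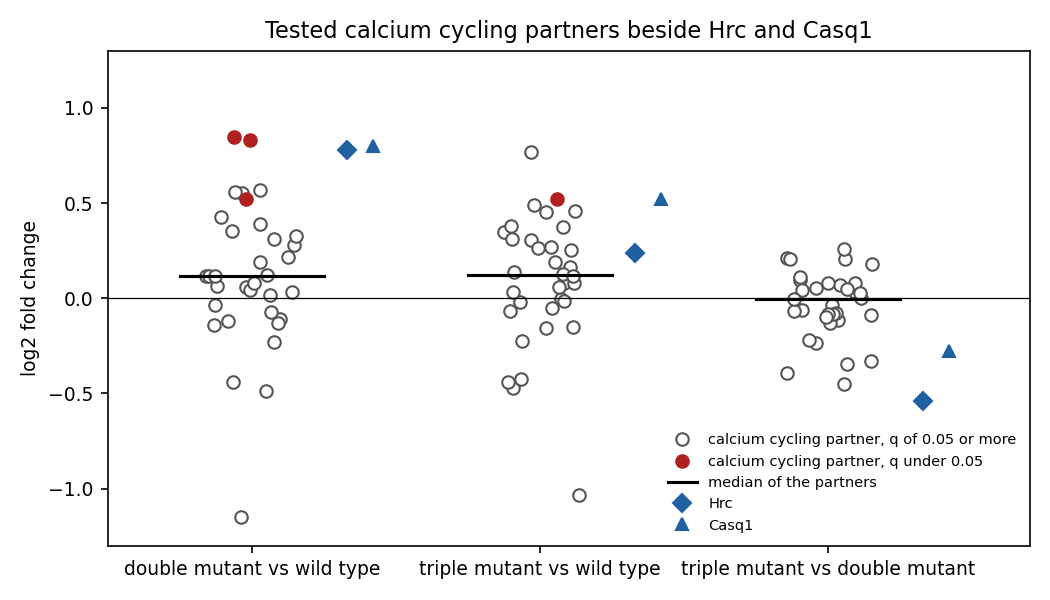
Log2 fold changes of the tested calcium cycling partners (34, 34 and 33 genes; circles, filled where q is under 0.05; bar, median) with Hrc (diamond) and Casq1 (triangle) beside them. In the double mutant against wild type the 3 filled circles are Ppp1ca, S100a1 and Cav3, and between the mutants Hrc lies at -0.54, below every partner.

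Other cell types were followed by marker genes beside these values. Of 17 skeletal muscle markers 16 stood under an FPKM of 1 in every group, with a summed level of 1.35 (wild type), 2.40 (double mutant) and 2.07 (triple mutant). Only Eno3, which the heart also expresses, was higher. Myod1, Pvalb, Myh2 and Myh4 were at 0 throughout. Casq1 stood at 25.3 to 44.1, and the part of skeletal muscle content in its values was not tested. Of 12 cardiomyocyte markers 10 are missing, including Tnnt2, Myh6 and Actc1. The remaining pair, Nkx2-5 and the mitochondrial creatine kinase gene Ckmt2, summed to 134, 227 and 183 in wild type, double and triple mutant. Ckmt2 alone, at 90.0, 174 and 128 in the authors' deposited table, had the order seen for Hrc, and it was called higher in both mutants than in wild type (q = 0.0066 each). Nkx2-5, at 43.6, 53.1 and 55.2 in the authors' deposited table, was highest in the triple mutant and was not called. Nkx2-5 is itself the gene altered in the triple mutants. In that group neither its value nor the sum is therefore a neutral marker of heart muscle content. The part of heart muscle content in the Hrc and Casq1 values was not tested. The 8 endothelial markers summed to 692, 652 and 585 and the 6 measured of 8 fibroblast markers to 544, 631 and 513, with none called in any comparison. All 6 fibroblast markers were lower in the triple than in the double mutant. Of these 4 had an unadjusted Cuffdiff p under 0.05, as did 8.45% of all tested genes. In that comparison 7 of the 8 endothelial markers were lower, none at that level. Against wild type all 6 fibroblast markers were higher in the double mutant, 2 at that level, as were 16.3% of all tested genes in either direction. In the triple mutant 5 of the 6 were lower, none at that level. Of the endothelial markers 6 were lower in the double mutant than in wild type, 1 at that level. In the triple mutant 7 were lower, 2 at that level, beside 12.1% of all tested genes. The 7 smooth muscle markers summed to 296, 284 and 372, with Acta2, the smooth muscle actin gene, called higher in the triple than in the double mutant, and the 6 blood markers to 373, 416 and 397, with none called.

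Transcript length, taken as the median over all GENCODE M21 transcripts of a gene, was set beside these values by 8 bins of equal size. In the double mutant against wild type, tested genes in the bin of Hrc (1509 bases) had a median log2 fold change of 0.02. Those in the bin of Casq1 (990 bases) had one of 0.04. That length counts every listed transcript alike, so the main transcript of a gene may belong in another bin.

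The 3 group values of Hrc were compared with those of 8535 other genes at an FPKM of at least 5 in every group, by the larger of the 2 differences in log2 ratio to wild type. The nearest were Uqcr11, a subunit of respiratory complex III (0.02), Grn, the progranulin gene (0.03), and Zdhhc12, a palmitoyltransferase gene (0.04). In all 27 genes lay within 0.1 of Hrc, so likeness over 3 values singles out no gene.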

How the data were processed

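Ventricle RNA from 8 samples in 3 groups was sequenced as stranded total RNA, per the labels' protocols. The submitters' processing notes name the mm9 build and the tools STAR 2.5.2, CASAVA 1.8, Cuffdiff 2.2.1 and Cufflinks 2.2.1. The annotation is not given in the sources used here, nor is the normalization. The authors deposited FPKM values, 1 for each gene in each group. For every comparison they also deposited a log2 fold change, a p-value, a q-value and the Cuffdiff statistic, treated here as a score. Recomputing Benjamini-Hochberg values over all tested rows gave the deposited q-values to within 5.26e-07, and the lowest p-value is 5e-05. Starts are printed as the file's start plus 1. Depth per sample is unknown.

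Python 3.11.15 with pandas 2.3.3 and scipy 1.17.1 was used, and the adjustment was checked on simulated data. No new test across samples was possible. The members and lists were chosen with earlier results of these data known. Named genes are the 10 members, partners called in any comparison, 4 central partners (Atp2a2, Ryr2, Cacna1c, Slc8a1) and the 3 genes nearest to a called member. Other genes named, including sex-linked genes, single markers and locus neighbours, were chosen after their values were seen. Alternatives covered the q threshold, the adjustment within a comparison, FPKM minimums of 1 and 5, pseudocounts of 1 and 0.1 and centring on the median gene. Replicates separate only as far as the labels say, so the p-values may measure technical spread.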

Additional observations from a re-analysis of the deposited data

How the results depend on the processing

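No paired analysis was possible because the table holds 1 value per group, and for the same reason no replicate could be left out. At a q value under 0.1 the calls over all genes numbered 575, 357 and 253 for double mutant against wild type, triple mutant against wild type and triple against double mutant, instead of 346, 198 and 160. Among the 6 tested genes that threshold gave 2 calls for the double mutant against wild type, with Casq1 beside Hrc, and 1 for the triple against the double mutant, where Hrc was lower. Adjustment within the comparison also gave 2 calls for the double mutant against wild type, where the calls over all genes numbered 446 instead of 346. An alternative chosen after seeing the data took p from the deposited statistic as a standard normal deviate. It left 9, 5 and 4 calls over all genes and 0 among the 6 genes in the double mutant against wild type. On that reading Hrc had p = 0.0063 against wild type, compared with 5e-05 in the authors' deposited table, and its call was lost. Of 36 values for single genes with a recomputed p or q, 34 stayed on their side of the threshold, Casq1 and Hrc being the exceptions. This count does not measure stability, since Hrc in the double mutant against wild type was the only deposited call among the 6 genes. The statistic read as a normal deviate called none of the 6 genes in any comparison, so every uncalled value stayed uncalled there. Pseudocounts and centring left the deposited q as it was, so their 54 values show only that no log2 fold change changed sign. Adding 1 to the FPKM moved no log2 fold change by more than 0.03. With the depth unknown, no limit can be given for Sln.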

Other observations

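For most tested genes the deposited p-value is smaller than the deposited statistic would give as a normal deviate. It is not so for all: Eif2s3y in the double mutant against wild type had a Cuffdiff p of 0.251, against 9.53e-05 from the statistic. Over all tested genes the normal deviate of p was a median of 1.76 times the statistic. Standard errors derived from p had a median of 0.222 on the log2 scale, against 0.405 from the statistic. The intervals printed for the calcium store genes use the statistic and are the wider of the 2.

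The HIDATA status, which marks loci with too many fragments, does not always come with 0 in every group. Of the 709 genes that carry it, 579 are listed at 0 in all 3 groups, 62 have a value in 1 group and 68 in 2. The troponin I gene Tnni3 is one of them, listed at an FPKM of 1855 in wild type and at 0 in both mutants of the authors' deposited table. Pln, Trdn and Srl are at 0 in all 3 groups.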
